A study of Oryza sativa with 4 samples.

Results

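Isolated OsLEC1 peaks are narrow binding regions on the chromosome arms of rice (Oryza sativa) that stand far from any other peak of the same list. They were chosen by the positions and widths of the peaks in OsLEC1-ChIP. A peak was taken when it was under 1000 bp wide, when the nearest summit on either side was more than 40 kb away, and when its summit lay more than 2 Mb from the position taken for the centromere. The summit is the base of a peak with the highest ChIP coverage. The first and the last peak of each chromosome were left out. Under this rule, 275 of the 27452 peaks listed for OsLEC1-ChIP were isolated, which was 1.06% (exact Clopper-Pearson 95% interval 0.936 to 1.19%) of the 26026 peaks on the arms. The arms were set by approximate centromere positions, which came with the rule and were not checked here.

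The ChIP-seq of the study used callus, a mass of dividing cells grown for 30 days from sterile seeds on a medium with 10 μM 2,4-D. The wild type was Nipponbare (NIP), and the other genotype was 35S:3*FLAG-OsLEC1 in the same background, in which the constitutive 35S promoter drives the tagged protein. Peaks were called for 1 ChIP library of each genotype against 1 input library of that genotype, with an antibody to the FLAG (DDDDK) epitope. According to the methods, the ChIP came from 1 transgenic line, and callus stood in for young embryos, so the level of the tagged protein was set by that promoter and not by the gene's own. The labels give 1 library for each group, so no difference given here can be set against a spread between callus samples. The methods also name a filter of reads by reproducibility between biological replicates (IDR), and whether it bears on the deposited list is not given in the sources used here.

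LEC1 belongs to the B subunits of Nuclear Factor Y, a complex of A, B and C subunits in which the A subunit contacts the CCAAT box. In Arabidopsis, LEC1 is known as a central regulator of embryo and seed maturation. ChIP-seq finds places bound by the tagged protein, directly or through partners, as peaks of sequenced fragments. A peak is described by the number of ChIP fragments over its summit (the pileup), by the background expected there from the input, and by the fold, which is the pileup plus 1 over the background plus 1. Rice chromosomes carry most genes on the arms away from the centromere, and repeated sequence is common around it. Genes and DNA sequence at the isolated peaks were not analysed here, since no genome of the build of the files was used. Positions refer to the IRGSP-1.0 build.

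The strongest isolated peaks were found on 6 chromosomes. Chromosome 12 carried the first of them at 8790626 to 8791470, where 74 fragments over the summit (exact Poisson 95% interval 58.1 to 92.9) and a background of 3.49 gave a fold of 16.7. The next was located on chromosome 3 from 15836177 to 15836633, where 81 fragments (64.3 to 101) stood on a background of 4.01 (fold 16.4). Another, on chromosome 8 at 8527377 to 8527778, held 69 fragments (53.7 to 87.3) on 3.49 (fold 15.6). The intervals of these pileups overlapped, so that their order is not fixed by counting.

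A second peak of chromosome 8, at 9951284 to 9951734, held 59 fragments (44.9 to 76.1) on 3.49 (fold 13.4) and had no other summit within 107 kb. At 16515236 to 16515794 of chromosome 12, 87 fragments (69.7 to 107) stood on 5.72 (fold 13.1). Chromosome 11 had 157 fragments (133 to 184) on 11.4 at 3473710 to 3474688 (fold 12.7). The peak on chromosome 11 was the highest of all isolated peaks by pileup and by −log10 q-value (114), and with 979 bp it was also the widest. The next highest pileup was 101 fragments, at a peak on chromosome 6 from 17920831 to 17921374, and its interval (82.3 to 123) did not reach that of the highest.

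The remaining 4 of the 10 highest folds lay between 12.03 and 12.45. They belonged to peaks on chromosome 1 from 19458001 to 19458448 (86 fragments), on chromosome 7 from 1037619 to 1038065 (70 fragments), on chromosome 8 from 2430996 to 2431459 (53 fragments) and on chromosome 12 from 15014149 to 15014606 (53 fragments). All 10 peaks had a higher fold than both neighbouring peaks, as the choice of the highest values makes likely. By pileup, 2 of them, both on chromosome 8, were lower than a neighbour. The peak from 8527377 had 69 fragments against 77 to its right, and the one from 2430996 had 53 against 81 to its left. The neighbour with 81 fragments, from 2389206 to 2389789, was itself isolated, and its background of 17.2 gave it a fold of 4.51.

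Isolated peaks with the lowest folds were close to the limit of peak calling. The lowest, 2.01, was that of 14973044 to 14973545 on chromosome 8, with 26 fragments (17.0 to 38.1) on a background of 12.403. The peaks on chromosome 11 from 14081168 to 14081524 and on chromosome 12 from 2731165 to 2731488 had folds of 2.09 and 2.26, each with 25 fragments over its summit. Both 8061145 to 8061515 and 17896579 to 17896895, again on chromosome 8, came to 2.38, with 20 and 15 fragments. The −log10 q-values of these 5 peaks lay between 2.0956 and 2.92. All 5 thus held 26 fragments or fewer. The background was 10.495 or more at 3 of them, and 7.83 and 5.72 at the peaks from 8061145 and 17896579.

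**Figure D1:**
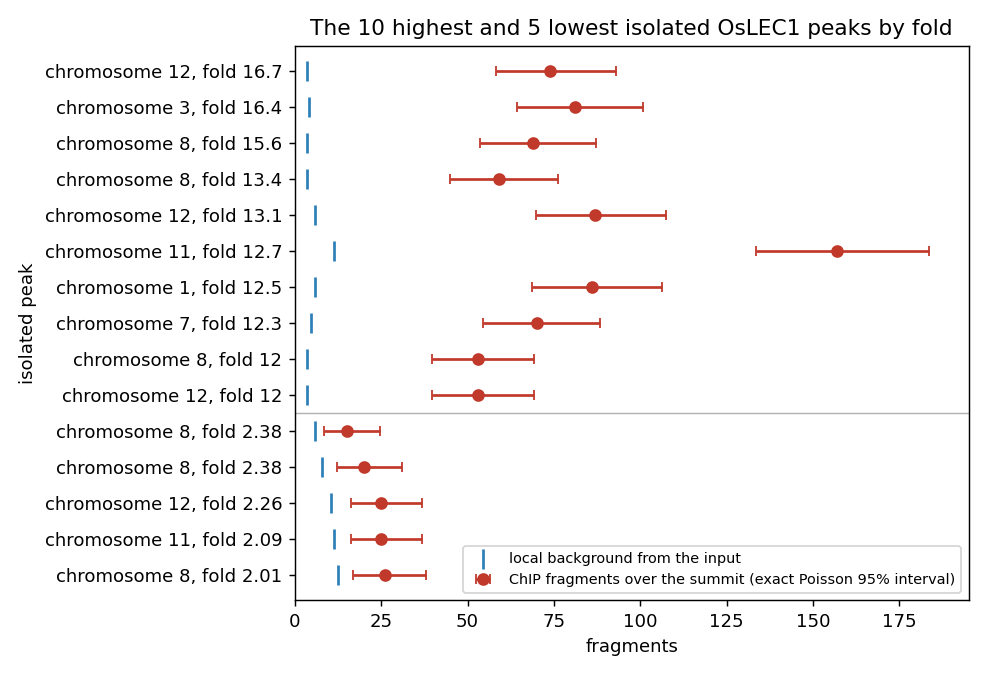
ChIP fragments over the summit (points, with exact Poisson 95% intervals) and the local background (blue marks), in fragments, for the 10 isolated peaks with the highest and the 5 with the lowest fold, each labelled by its chromosome and fold. The peak on chromosome 11 with a fold of 12.7 reaches 157 fragments, and the 5 lowest peaks hold 15 to 26.

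As a group, the isolated peaks had fewer fragments over their summits than other peaks of the arms, while their folds were alike. The comparison used the 24359 other arm peaks under 1000 bp. The rule drew on the same peak list, so these values are a description and were not tested. The median pileup was 32 fragments (exact order-statistic 95% interval 30 to 35), with 90% of the peaks between 18 and 75, against 38 (38 to 38) at the other peaks. The median background was 5.72 (5.72 to 6.68), against 6.68 (6.68 to 6.68). The median fold was 4.91 (4.66 to 5.16), against 5.03 (4.99 to 5.06). A lower pileup and a lower background thus went together and left a fold within the interval of the isolated peaks. The intervals cover the spread over the peaks of 1 library and hold no variation between samples.

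Part of this was shared by the surroundings. The 138 bins of 1 Mb that held an isolated peak also held 5381 other arm peaks under 1000 bp. Those had a median pileup of 36 (35 to 36), a median background of 6.10 (5.99 to 6.45) and a median fold of 5.10 (5.03 to 5.19). They lay between the isolated peaks and all other arm peaks by pileup and background.

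**Figure D2:**
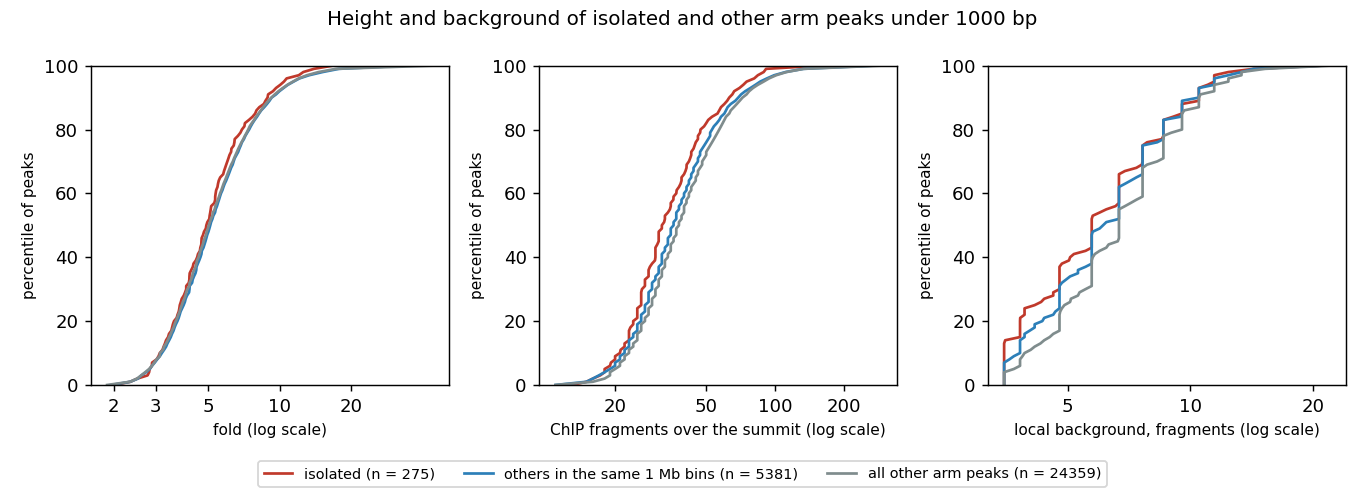
Percentiles of the fold, of the ChIP fragments over the summit and of the local background (log scales) for the 275 isolated peaks, for 5381 others in the same 1 Mb bins and for all 24359 other arm peaks under 1000 bp. The curves of the fold lie close together, whereas the isolated peaks lie to the left by pileup (median 32 against 38).

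By −log10 q-value the isolated peaks were somewhat weaker, with a median of 12.5 against 14.5 at the other arm peaks under 1000 bp. The exact order-statistic 95% intervals of these medians did not overlap. Arm peaks with the nearer summit 20 to 40 kb away had a median of 12.70 (11.99 to 13.42), within the interval of the isolated peaks (11.13 to 13.68). The lower median was thus shared by peaks spaced almost as widely. Of those peaks, 64.3% reached a −log10 q-value of 10 or more, and 1.37% (0.707 to 2.37%) had one under 3. Strong peaks made up a slightly smaller share of the isolated peaks than of the other arm peaks under 1000 bp. The share of peaks with a −log10 q-value under 3 was larger at the isolated peaks. For each of the shares given below, the intervals of isolated and other arm peaks under 1000 bp overlapped. The highest fold of the isolated peaks was 16.7, and that of the other arm peaks under 1000 bp, a far larger group, was 43.9. Of the isolated peaks, 175 reached a −log10 q-value of 10 or more, or 63.6% (57.6 to 69.3%), beside 68.8% of the other peaks. A value of 50 or more was found for 12 of them, or 4.36% (2.27 to 7.498%), beside 6.91%. A fold of at least 10 was found for 17 isolated peaks, or 6.18% (3.64 to 9.71%), against 7.73% (7.40 to 8.07%). A −log10 q-value under 3 was found for 8 isolated peaks, or 2.91% (1.26 to 5.65%), against 1.51% (1.37 to 1.68%), and these intervals overlapped. With so few peaks at either end, a small difference in such shares was not detectable.

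The background was at its lowest value at more of the isolated peaks than of all other arm peaks, and at a similar share of the peaks spaced almost as widely. This floor, 3.49 fragments, was the lowest background found at any peak of the 12 chromosomes. It was taken as the mean coverage of the ChIP library, which was not checked against library totals. On that reading, a peak sits on the floor when the input around the summit is not above the average. The floor was reached by 39 isolated peaks, or 14.2% (10.3 to 18.9%), by 7.69% (6.996 to 8.44%) of the other peaks in the same bins and by 4.36% (4.103 to 4.62%) of all other arm peaks under 1000 bp. For arm peaks with the nearer summit 20 to 40 kb away the share was 10.2% (8.31 to 12.44%), which overlapped that of the isolated peaks. A background of at least 10 fragments was found for 11.6% (8.10 to 16.0%) of the isolated peaks and for 13.8% (13.4 to 14.2%) of the others. Among the isolated peaks, the highest background was 20.99, on chromosome 2 from 16297377 to 16297691, where 66 fragments gave a fold of 3.05.

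To see how these values changed with distance, all inner arm peaks under 1000 bp were sorted by the distance to the nearer summit. The median pileup was 36 fragments (35 to 36) under 1 kb, 39 (38 to 39) for distances of 1 to 2 and of 2 to 5 kb, 38 (38 to 39) for 5 to 10 kb, 36 (35 to 37) for 10 to 20 kb, 34 (33 to 36) for 20 to 40 kb, and 32 for both 40 to 60 kb (30 to 35) and 60 to 100 kb (30 to 38). Beyond 100 kb it was 35 (23 to 43) over 21 peaks. The medians thus went down from 2 to 5 kb onward to 60 to 100 kb, while the closest peaks had the value of those 10 to 20 kb apart. The intervals on both sides of the limit of 40 kb overlapped. The median fold lay between 4.75 at less than 1 kb and 5.35 beyond 100 kb, with no steady order. Among the isolated peaks alone, the distance to the nearer summit had a Spearman rho of 0.0105 with the fold and −0.0360 with the pileup. These correlations run over 275 peaks of 1 library and are given without a test.

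**Figure D3:**
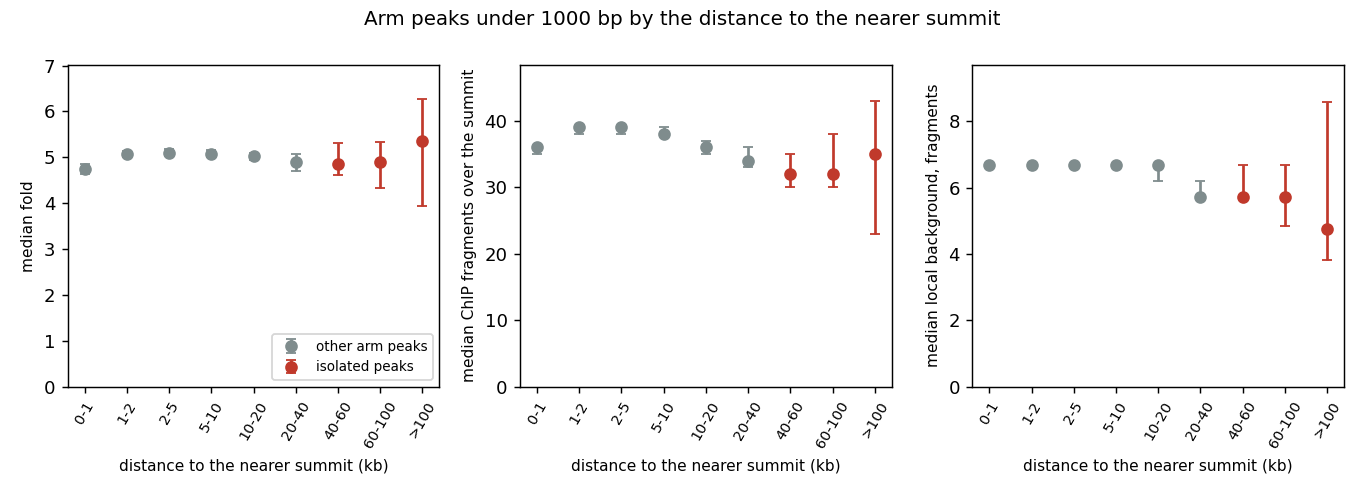
Median fold, median ChIP fragments over the summit and median local background of arm peaks under 1000 bp, by the distance to the nearer summit in kb, with exact order-statistic 95% intervals (grey, other arm peaks; red, isolated peaks). The median pileup goes from 39 at 2 to 5 kb to 32 at 40 to 60 kb, and the fold stays near 5.

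Isolated peaks were also compared with the peaks on either side of them, which are their nearest matches in position. An isolated peak had a lower pileup than both neighbours in 88 of 275 cases, or 32.0% (26.5 to 37.9%), and a higher one in 87, or 31.6% (26.2 to 37.5%). For the other arm peaks under 1000 bp the shares were 33.3% (32.7 to 33.9%) and 30.7% (30.1 to 31.2%). By fold, 98 isolated peaks (35.6%) stood below both neighbours and 93 (33.8%) above both, against 34.2% and 31.8% of the other arm peaks. In these counts, isolated peaks were about as often a low or a high point beside their neighbours as the other arm peaks were. The 408 neighbours that were not isolated had a median pileup of 35 and a median fold of 4.99.

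Isolated peaks were narrow, as the rule demands, and their summits lay near the middle. The median width was 353 bp (335 to 378), from 241 to 979 bp, against 397 bp (395 to 400) at the other arm peaks under 1000 bp. Widths under 300 bp were found for 71 isolated peaks, or 25.8% (20.7 to 31.4%), against 21.1% (20.5 to 21.6%) of the others. The summit was at most 50 bp from the centre of the peak in 190, or 69.1% (63.3 to 74.5%), against 63.2% (62.6 to 63.8%) of the others. For arm peaks with the nearer summit 20 to 40 kb away, the median width was 364 bp (353 to 376). Of them, 25.4% (22.5 to 28.4%) were under 300 bp wide, and 68.0% (64.8 to 71.1%) had the summit within 50 bp of the centre. All of these intervals overlapped those of the isolated peaks. Within the isolated peaks, width went up with the pileup (Spearman rho 0.509, 275 peaks) and less with the fold (0.281). For the other arm peaks, the same values were 0.546 and 0.430.

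A summit within 10% of the peak's width from either end was seen in 4 isolated peaks, of which 3 were among the 5 with the lowest fold. At the peak on chromosome 12 from 2731165 to 2731488, for example, the summit was 321 bp from the start of a peak 324 bp wide. The other one was at 22100970 to 22101261 on the same chromosome (fold 2.60, 16 fragments). These 4 made up 18.2% (5.19 to 40.3%) of the 22 isolated peaks with a fold under 3. At the other arm peaks under 1000 bp, 9.81% (8.49 to 11.3%) of those with a fold under 3 had such a summit, 0.343% of those between 3 and 5, and 0 of 12319 with a fold of at least 5. This feature was looked at after the values of the weakest peaks had been seen.

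Chromosomes differed widely in their number of isolated peaks. Chromosome 11 had 44 and chromosome 4 had 40, whereas chromosome 3 had 5 and chromosome 2 had 9. As a share of the arm peaks, the isolated ones made up 3.88% (2.83 to 5.17%) on chromosome 11, 2.88% (1.91 to 4.16%) on chromosome 12 and 1.98% (1.32 to 2.85%) on chromosome 9. They made up 0.129% (0.0418 to 0.300%) on chromosome 3, 0.280% (0.128 to 0.531%) on chromosome 2 and 0.361% (0.202 to 0.595%) on chromosome 1. The intervals of chromosomes 1, 2 and 3 did not overlap those of chromosomes 4 and 7 to 12. Per Mb of arm, the numbers ran from 0.155 (0.0502 to 0.361) on chromosome 3 to 1.77 (1.29 to 2.38) on chromosome 11. The rule itself makes isolated peaks rarer where peaks are dense.

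**Figure D4:**
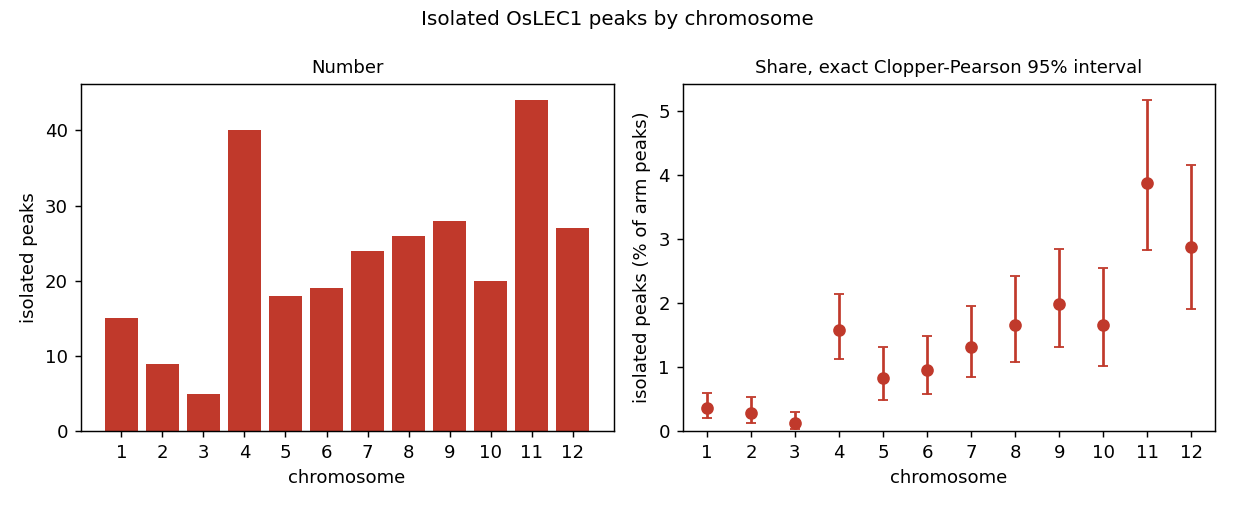
Number of isolated peaks (bars) and their share of the arm peaks in percent (points, with exact Clopper-Pearson 95% intervals) on each of the 12 chromosomes. Chromosome 11 has the most (44, or 3.88%) and chromosome 3 the fewest (5, or 0.129%).

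The 5 isolated peaks of chromosome 3 included one of the strongest, and 10 of the 12 chromosomes had a lower median pileup at isolated peaks than at their other arm peaks under 1000 bp. The exceptions were chromosome 10, with 39 against 37 fragments, and chromosome 12, with 35 on both sides. By fold, the isolated peaks had the lower median on 5 chromosomes and the higher one on 7. The median fold of isolated peaks ranged from 4.36 on chromosome 9 (28 peaks) to 5.40 on chromosome 1 (15 peaks). Besides those named above, the highest fold on a chromosome was 10.5 on chromosome 2 (21224609 to 21225088, 63 fragments), 9.701 on chromosome 4 (2523355 to 2524085, 92 fragments), 9.34 on chromosome 5 (7222098 to 7222470, 44 fragments), 10.6 on chromosome 6 (17920831 to 17921374, 101 fragments), 10.4 on chromosome 9 (11092486 to 11092987, 69 fragments) and 8.93 on chromosome 10 (6016447 to 6017011, 47 fragments). Every chromosome thus had an isolated peak with a fold of at least 8.93.

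Along the arms, isolated peaks were found mostly toward the centromere. Between 2 and 5 Mb from it, 123 of 2774 arm peaks were isolated, or 4.43% (3.70 to 5.27%). The share was 1.495% (1.23 to 1.80%, 113 peaks) between 5 and 10 Mb and 0.248% (0.177 to 0.340%, 39 peaks) farther out. On chromosome 4, 39 of the 40 isolated peaks (97.5%) lay in the first 19 Mb, with 15.3% of the arm peaks and 47.5% of the arm length of that chromosome. On chromosome 9, 26 of 28 (92.9%) lay in the first 12 Mb, with 14.6% of the arm peaks and 41.8% of the arm length. These 2 limits were set after the positions had been seen. On chromosome 7, 20 of 24 (83.3%) lay on the side of the centromere with the lower coordinates, with 27.5% of the arm peaks and 39.7% of the arm length. On chromosome 11, 32 of 44 (72.7%) lay on the side with the higher coordinates, which held 58.9% of the arm peaks and 60.3% of the arm length. Within 1 Mb of the first or last peak of a chromosome, 22 isolated peaks were counted among 1828 arm peaks. Over all arms it was 275 among 26026 (1.06%), so isolated peaks were no rarer at the ends than on the arms as a whole. Some of these ends lie within 10 Mb of a centromere, as on chromosome 9.

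The 39 isolated peaks beyond 10 Mb from the centromere lay in sparser stretches than the 14626 other peaks of this zone under 1000 bp. Within 500 kb on either side they had 43 other summits in the median (38 to 57), against 126 (125 to 127). For this zone, no comparison with other peaks of the same bins was made. The isolated peaks had a median pileup of 27 fragments (26 to 33), against 39 (38 to 39) at the others. Their median background was 3.82 (3.49 to 5.53), against 6.68 (6.68 to 6.68). The median fold was 5.61 (4.66 to 6.10), against 4.98 (4.95 to 5.03). The background was at its floor for 15 of the 39, or 38.5% (23.4 to 55.4%), against 3.04% (2.76 to 3.33%) of the others. Between 2 and 5 Mb, the same shares were 11.4% (6.36 to 18.4%) and 9.67% (8.56 to 10.9%), and their intervals overlapped. In that inner zone, which held 123 of the 275 isolated peaks, their median background was higher than that of the others, at 6.22 (5.72 to 6.68) against 5.76 (5.72 to 6.22), and the median pileups were 33 (30 to 36) and 35 (34 to 36). Between 5 and 10 Mb, the median backgrounds were 6.22 (5.53 to 6.68) and 6.68, and the median pileups 34 (31 to 39) and 37 (37 to 38). A lower background was thus seen beyond 10 Mb and not in the inner zone, and the difference between the zones was not tested.

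Chromosome 11 held 15 of these 39 peaks, chromosome 8 held 7 and chromosome 12 held 4, and the others held up to 3 each. On chromosome 11, 6 of 15 were at the floor (interval of the share 16.3 to 67.7%), against 13.2% (9.96 to 17.1%) of the 370 other peaks. Without chromosome 11, 9 of 24 were at the floor, or 37.5% (18.8 to 59.4%), against 2.77% (2.51 to 3.05%) of 14256. The share of isolated peaks at the floor was thus about as large without that chromosome. On chromosome 11 itself, the intervals of the isolated and the other peaks overlapped. The other peaks there had a median background of 5.72, against 6.68 for the other peaks of the remaining chromosomes. The 15 peaks at the floor had 19 to 53 fragments over their summits. The highest was 2430996 to 2431459 on chromosome 8, named above, and the lowest was 26203489 to 26203779 on chromosome 11.

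The empty flanks of the isolated peaks were of uneven length. The nearer summit was 51.5 kb away in the median (50.02 to 54.2 kb), from 40.1 to 300 kb, and the farther one was 87.1 kb away (79.7 to 93.2 kb), up to 623 kb. Of the 275 peaks, 21 had more than 100 kb on both sides. Within 500 kb on either side there were 35 other summits in the median (33 to 38), from 4 to 103, against 107 (106 to 108) around the other arm peaks under 1000 bp. In sum, the gaps beside isolated peaks covered 41.0 Mb, or 11.04% of the 371.9 Mb between the first and last summits of the chromosomes. These 479 gaps were part of 1834 gaps over 40 kb, so most long gaps had no isolated peak at either end.

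**Figure D5:**
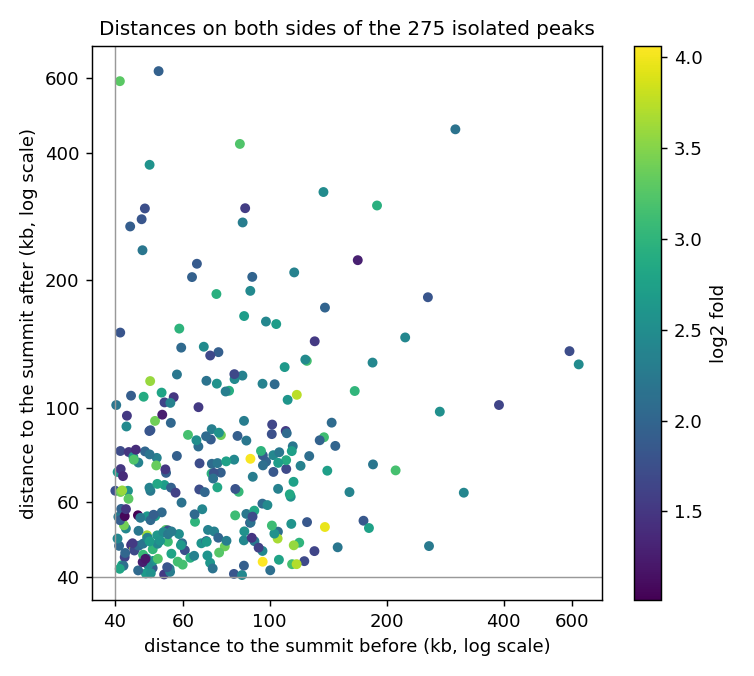
Distance from each of the 275 isolated peaks to the summit before it (x axis) and after it (y axis), in kb on log scales, coloured by the log2 of the fold, with grey lines at the limit of 40 kb. Most points lie below 100 kb on at least 1 axis, and 21 peaks have more than 100 kb on both sides.

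The most isolated peaks were located on chromosomes 5, 11 and 4. On chromosome 5, the peak from 10269235 to 10269521 had no summit within 300 kb, with 43 fragments (31.1 to 57.9) and a fold of 4.51. Its neighbour from 9968935 to 9969205 was 189 kb from the next summit on its other side, with 36 fragments (25.2 to 49.8) and a fold of 7.68. On chromosome 11, the peak from 27472838 to 27473301 had no summit within 182 kb, with 16 fragments (9.15 to 26.0) and a fold of 3.53. The pair on chromosome 4, from 2034560 to 2034862 and from 2257795 to 2258080, had 21 and 29 fragments and folds of 2.43 and 5.35. By fold, the highest of these 5 peaks ranked 45 among the 275.

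Some isolated peaks followed each other, and 122 of them stood in runs of 2 or more. The rule favours this, since an isolated peak already gives its neighbour a gap of more than 40 kb. The share expected from the rule alone was not computed, so clustering beyond it was not tested. In all, the isolated peaks formed 204 runs of consecutive peaks, of which 153 were single, 36 held 2 peaks, 10 held 3 and 5 held 4. The longest stretch of the runs of 4 was on chromosome 4, where the 4 peaks between 14956082 and 15413522 had 91, 23, 25 and 30 fragments and were the only ones in 670 kb. A run of 3 on chromosome 5 between 9780035 and 10269521 had 41, 36 and 43 fragments in 1033 kb. Over the 71 adjacent pairs of isolated peaks, the pileups had a Spearman rho of 0.0503, against 0.0518 for 22869 adjacent pairs of other arm peaks. For the fold, rho was 0.167 over the same 71 pairs and 0.0290 over the others, and for the width it was 0.270 and 0.0453. These values come from pairs of 1 library and were not tested.

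The 138 bins with an isolated peak included 39 with 3 or more. The most were found on chromosome 7 from 6000001 to 7000000, where 8 of 23 peaks were isolated. Their pileups were 47, 20, 31, 19, 26, 27, 34 and 23 fragments in order of position, with folds of 3.18 to 6.24. Chromosome 9 from 9000001 to 10000000 had 6 among 31 peaks, with folds of 3.21 to 4.54, and chromosome 11 from 16000001 to 17000000 had 6 among 29, with folds of 2.78 to 9.80. Strong and weak isolated peaks were thus found side by side in some bins and not in others.

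Isolated peaks within 2 Mb of a centromere had similar values. There were 118 under 1000 bp, with a median pileup of 34 (31 to 37), a median background of 6.45 (5.53 to 6.68), a median fold of 5.03 (4.46 to 5.63) and a median width of 362 bp (327 to 382). The intervals of all 4 values overlapped those of the isolated peaks on the arms. The background was at its floor for 11.02% (5.998 to 18.1%) of them, against 14.2% on the arms.

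In the wild type, which carries no tag, 2 peaks were listed, both on chromosome 11 (12122549 to 12123488 and 12352092 to 12352859). They lay in the zone around the centromere that the rule leaves out, so that no isolated peak could overlap them. The nearest isolated peak, from 14081168 to 14081524, was 1958 kb and 1729 kb away. With the lowest background taken as the mean coverage, as above, NIP-ChIP had a mean coverage of 0.842 or less, from the weaker of its peaks. This was no more than 24.1% of that in OsLEC1-ChIP. On this reading NIP-ChIP was the shallower library, and whether NIP signal was lacking at single isolated peaks was not tested.

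Peaks on both sides of the limits of the rule varied in height. Just inside 40 kb were peaks on chromosomes 3 (24352052 to 24352361, 40.1 kb, fold 3.39), 7 (8287821 to 8288093, 40.3 kb, fold 5.40) and 5 (351514 to 351776, 40.3 kb, fold 4.61). Just outside were peaks on chromosomes 6 (22377731 to 22378049, 39.9 kb, fold 3.94), 4 (16200652 to 16201110, 39.9 kb, fold 4.30) and 1 (13844174 to 13844741, 39.7 kb, fold 13.8). Of 397 peaks with more than 40 kb on both sides, 119 lay near a centromere and 3 more were at least 1000 bp wide. These 3 were 1031 bp (chromosome 6, fold 10.5), 1195 bp (chromosome 5, fold 6.92) and 1361 bp (chromosome 12, fold 3.44), and the widest isolated peak below the limit had 979 bp.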

How the data were processed

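Reads were aligned by the authors to IRGSP-1.0 with Bowtie2 (2.3.4.1 in the submitters' processing notes), uniquely mapped reads were kept, and MACS2 (2.1.2) called peaks on each ChIP library against its input at a q-value of 0.01. Since only unique reads were kept, stretches of repeated sequence can hold few peaks. The deposited columns are a fold (a ratio from the peak caller), −log10 p-values and −log10 q-values, and a score equal to 10 times the latter. The distance from start to summit was deposited as well.

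The pileup and background of each peak were solved from the deposited fold and −log10 p-value as a Poisson tail, with a tolerance of 0.001. All peaks were recovered. Starts were changed to 1-based positions, and 20 peaks on unplaced sequences were left out. Intervals are exact (Poisson, Clopper-Pearson, order statistics) at 95%. Those of pileups cover counting error alone, and those of shares and medians the spread over the peaks of 1 library. Fragments copied by PCR are not independent. Library totals were not used, and depth is given as mean coverage, taken from the lowest background. Solver and rule were tested on simulated data. Python 3.11.15, pandas 2.3.3 and SciPy 1.17.1 were used.

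Regions named were the 10 highest and 5 lowest by fold, the 5 most isolated, the highest of each chromosome and those at the limits of the rule, and any other was chosen after its values were seen. The members, lists and limits were chosen with earlier results of these data known. With 1 library per group, no test was run.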

Additional observations from a re-analysis of the deposited data

How the results depend on the processing

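The number of isolated peaks depended on the distance required, by construction. It was 494 with more than 30 kb to the nearest summit and 155 with more than 50 kb, and the medians of fold, pileup, background and width then stayed within the intervals given for the 275 peaks. Requiring a −log10 q-value of at least 10 left 175 peaks, with a median fold of 5.89, a median pileup of 41 and a median width of 399 bp. The other arm peaks under 1000 bp had 5.997, 45 and 438 bp at that limit. When the list was shortened to that limit before the distances were taken, a choice made after seeing the data, 440 peaks were isolated, 175 of the 275 among them, with a median fold of 5.95, a median pileup of 40 and a median width of 396 bp. The limit of 5, no limit on width, and 1 or 3 Mb around the centromeres gave between 226 and 322 peaks, and no median left its interval. Overlap with NIP peaks was 0 at 1 bp and at 50%, which the rule fixes, since both lie in the zone it leaves out. Alternatives for gene starts, sequence words and GC content were not run, since no genome of this build was used here. No paired analysis was possible because the 4 groups held single libraries. The approximate centromere positions, the single library and its mean coverage, taken as 3.49 fragments, limit all values.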
